A study of Zea mays with 322 samples.

Results

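The short arm of maize chromosome 1 (1S) was present in 1, 2 or 3 copies in diploid plants and in 1 or 2 copies in haploid plants, and the small RNAs of their leaves were counted at 64 MIRNA loci. The plants were all those labelled for the translocation line TB-1Sb or for its controls, 22 of the 322 libraries of the series. They were 4 diploid plants with 1 copy of 1S (monosomies, 1D), 4 diploid controls with 2 copies (2D), 4 diploid plants with 3 copies (trisomies, 3D), 4 haploid controls with 1 copy (h1D) and 6 haploid plants with 2 copies (disomies, h2D). All were sampled as 45-day leaf tissue, and each library carries the number of its own plant. The 2D plants also served as the controls of the lines for 3S and 5L, so that 1D/2D and 3D/2D share their control plants. Of the 64 loci, the 7 that the study's locus table places in the varied region are called cis here and the other 57 trans.

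A B-A translocation attaches a piece of an ordinary (A) chromosome to the centromere-bearing part of a B chromosome, an extra chromosome that maize can do without. The B centromere often fails to separate at the second pollen mitosis, so crosses with such a line give plants that lack or gain the attached A segment. According to the study's methods, the aneuploid plants can carry part of a B chromosome, or a whole one or more, whereas the controls carry none, and the A segment can come from another background than the rest of the genome. In these groups the number of copies of 1S, the B chromatin and the origin of the segment cannot be told apart. Plant miRNAs are cut from hairpin transcripts of MIRNA genes and guide the cleavage or silencing of complementary mRNAs. Many plant families have several loci that give the same mature sequence, and for such loci a read does not show from which copy it came.

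The cis loci are given first with the small RNA that the locus table lists for each, since MIR166g and MIR171e share theirs with trans loci, which limits what their counts show. Bases 2 to 8, the seed, are in capitals, and the sequences run 5′ to 3′.
MIR171e: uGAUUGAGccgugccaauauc
MIR166g: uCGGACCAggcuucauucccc
Cluster_4527: cCUGAGUCuuuagaucaugau
Cluster_10611: uUCUGGAUauauaguuuuugc
MIR164e: gUGGUCGUucauguguccgcc
Cluster_15779: uUGGGAGCcacaaaacugaag
Cluster_20009: aGUAGGGCcugugagauagac
In the W22v2 genome these loci lie at chr1:8284261-8284538 (MIR171e), chr1:14797065-14797291 (MIR166g), chr1:18076867-18077142 (Cluster_4527), chr1:47197321-47197571 (Cluster_10611), chr1:47744884-47745063 (MIR164e), chr1:74812358-74812506 (Cluster_15779) and chr1:102545616-102545800 (Cluster_20009). Cluster_20009 lies in the annotated gene Zm00004b002208, and the table gives no gene for the other 6. The 4 loci with a cluster number matched no known miRNA. The miR166 family targets mRNAs of class III homeodomain-leucine zipper factors, which set the upper side of the leaf, and the miR171 family targets mRNAs of GRAS factors of the HAIRY MERISTEM group. The miR164 family targets NAC factors of organ boundaries, but the strand listed for MIR164e is not the conserved miR164 sequence. MIR166f on chromosome 5 and MIR166i on the long arm of chromosome 1 have the sequence of MIR166g, and MIR171f, MIR171i and MIR171n on chromosomes 5, 1 and 9 have that of MIR171e. The sequences of the other 5 cis loci were each listed once.

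The 22 libraries held 31667 to 155560 counts on the loci (median 67328) and 1204150 to 3891313 mapped reads. The loci took 2.62 to 5.79% of the mapped reads, and this share differed in no comparison of groups (exact two-sided permutation tests, 4 comparisons, adjusted p of 0.724 or more). MIR166f and MIR166g together held 87.6 to 95.9% of the counts, so all other loci rest on a small part of each library, and 1 read was worth 0.257 to 0.83 RPM, the reads of a locus scaled to a common number of mapped reads. All 39 pairs of plants within a group differed by more than sampling noise. The 12 diploid plants belong to 1 sequencing experiment, and of the 10 haploid plants all but the h2D plant 1Sbh9 share a sequencing pool. The labelled tissue could not be checked, since a table of miRNAs holds no marker genes of leaf.

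Cluster_15779 followed the dosage of 1S in every comparison. It was at 17.5, 20.5, 9.39 and 17.4 RPM in the 4 1D plants, at 52.2, 47.9, 58.3 and 54.3 RPM in the 2D plants and at 138.7, 101.3, 101.9 and 135.4 RPM in the 3D plants, with no overlap between the groups. In haploid plants it was at 66.4, 56.2, 50.1 and 38.6 RPM in h1D and at 158.7 to 265.7 RPM in h2D (median 177.1), again with no overlap. The group means were 16.2 ± 4.76, 53.2 ± 4.34 and 119 ± 20.5 RPM in 1D, 2D and 3D (SD, n = 4 each), 52.8 ± 11.6 RPM in h1D (n = 4) and 191.0 ± 41.3 RPM in h2D (n = 6). On counts scaled by trimmed mean of M-values (TMM), the scale of all log2 fold changes below unless another is named, it fell by 1.87 in 1D/2D (SE 0.31, edgeR FDR = 0.000379) and rose by 0.91 in 3D/2D (SE 0.21, edgeR FDR = 0.0035). In 3D/1D, which leaves out the shared control, it rose by 2.39 (SE 0.27, edgeR FDR = 2.08e-07), a 5.23-fold difference, and in h2D/h1D by 1.41 (SE 0.17, edgeR FDR = 8.27e-06), or 2.67-fold.

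The steps of Cluster_15779 were wider than the steps in copies. A level in proportion to the copies gives a log2 fold change of -1.0 when 1D plants are set against 2D, of 1.58 when 3D plants are set against 1D, and of 1.0 when h2D plants are set against h1D. The 95% intervals were -2.54 to -1.20, 1.83 to 2.95 and 1.05 to 1.77. In 3D/2D the interval of 0.48 to 1.34 held the log2 ratio of copies, 0.58. The slope of its level on copies over the 12 diploid plants, both on the log2 scale, was 1.50 (SE 0.16, interval 1.17 to 1.83), where a slope of 1.0 stands for proportion. All 4 calls stood without any 1 plant, but with the 2D plants of the 6L line as the control, the rise in 3D/2D was 0.27 and was not called.

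The reads assigned to MIR171e were also more abundant with more copies, although these reads fit 3 other loci as well. Its values were 12.6, 26.6, 15.3 and 14.1 RPM in 1D, 47.8, 35.6, 22.4 and 32.1 RPM in 2D and 60.3, 65.6, 88.7 and 55.9 RPM in 3D. The 1D and 2D groups overlapped in 1 plant each, whereas all 3D plants lay above all others. In the haploid plants it was at 21.3, 26.1, 17.5 and 20.7 RPM in h1D and at 38.6 to 46.8 RPM in h2D (median 40.9), without overlap. It fell by 1.11 in 1D/2D (SE 0.38, edgeR FDR = 0.0272) and rose by 1.49 in 3D/1D (SE 0.31, edgeR FDR = 0.00031) and by 0.53 in h2D/h1D (SE 0.16, edgeR FDR = 0.0158). In 3D/2D its log2 fold change of 0.69 (SE 0.25) missed the threshold (edgeR FDR = 0.0687). The call in 3D/1D stood without any 1 plant and under every other setting. That in 1D/2D was lost in 4 of the 8 fits without 1 plant, those without 1Sb16 of 2D or without 1Sb17, 1Sb18 or 1Sb1 of 1D, where the log2 fold change ranged from -1.23 to -0.67 over the 8 fits, and it turned to 0.19 with the 6L control. The call in h2D/h1D was lost without the h1D plant Hh46 or Hh48 (range 0.47 to 0.67 over the 10 fits) and in 1 fit over the 5 groups (0.42).

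Reads assigned to the trans loci of the same sequence rose too. MIR171n on chromosome 9 was at 8.78 ± 2.9 RPM in 1D, 23.03 ± 2.14 RPM in 2D and 37.99 ± 3.69 RPM in 3D (SD, n = 4 each), and rose by 1.60 in 3D/1D (SE 0.33, edgeR FDR = 0.00031). Its own copies did not vary in these plants, and whether its reads came from it or from MIR171e cannot be told apart. Summed over MIR171e, MIR171f, MIR171i and MIR171n, the mature sequence was at 26.3 ± 8.33 RPM in 1D, 58.1 ± 12.5 RPM in 2D, 105.98 ± 18.4 RPM in 3D (n = 4 each), 34.7 ± 2.01 RPM in h1D (n = 4) and 65.8 ± 5.92 RPM in h2D (n = 6). The sums of 1D (21.3 to 38.7 RPM), 2D (42.4 to 72.9 RPM) and 3D (92.5 to 132.6 RPM) did not overlap, nor did those of h1D (32.2 to 37 RPM) and h2D (60.2 to 73.2 RPM). The share of MIR171e in the sums was 64.8, 58.5 and 63.5% in 1D, 2D and 3D, and 61.3 and 63.9% in h1D and h2D, which depends on how the aligner divided the reads and does not show which locus changed. How reads that fit several loci were placed by the aligner was not tested.

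The reads assigned to MIR166g, the most abundant of the cis loci, did not rise with dosage, although they too fit other loci. It was at 11230, 7219, 9011 and 10853 RPM in 1D, at 8259, 8770, 8329 and 7608 RPM in 2D and at 9514, 11357, 6156 and 8282 RPM in 3D, and the 3 groups overlapped. In the haploid plants it was at 13265, 11133, 13128 and 12572 RPM in h1D and at 8890 to 14809 RPM in h2D (median 10453), with overlap. Its log2 fold change was 0.05 in 1D/2D (interval -0.03 to 0.14) and -0.19 in 3D/2D (interval -0.48 to 0.11), neither called. MIR166f and MIR166g held most of the counts that set the library size. The narrow interval in 1D/2D therefore does not carry the spread in RPM between plants and does not decide on dosage. With DESeq2, MIR166g was called higher in 1D/2D. It was called lower in h2D/h1D (-0.59, SE 0.15, edgeR FDR = 0.0104) and in 3D/1D (-0.73, SE 0.23, edgeR FDR = 0.0104). With all mapped reads as the library size, these values were -0.15 and -0.12 and neither was called. The call in 3D/1D was lost in all 5 other settings, also with DESeq2 (-0.40), no limit on mean RPM (-0.37), a limit of 1 (-0.17) and 1 fit over the 5 groups (-0.50), and in 5 of 8 fits without 1 plant, those without 1Sb14 of 1D or without any of the 3D plants 1Sb2, 1Sb4, 1Sb6 and 1Sb7 (range -0.74 to -0.17). None of the 4 intervals held the log2 ratio of copies, a ratio that reads divided among identical loci need not follow.

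The miR166 sequence as a whole is read from 3 loci, of which 1 varied in copies. The share of MIR166g among them was 26.7 to 26.8% in every group, with SDs of 0.0791 to 0.337 points over plants, which again depends on how the aligner divided the reads and does not show whether the transcripts of MIR166g followed their copies. The sequence summed over the 3 loci was at 35867 ± 6974 RPM in 1D, 30800 ± 1965 RPM in 2D and 33025 ± 8024 RPM in 3D (SD, n = 4 each), and its difference in no comparison passed the test (exact permutation, adjusted p of 0.648 or more). MIR166f and MIR166i had log2 fold changes of -0.58 and -0.52 in h2D/h1D, beside -0.59 for MIR166g. The call of MIR166i was lost without the h1D plant Hh48 (-0.62 to -0.44), and with mapped reads neither was called (-0.15 and -0.08).

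MIR164e was detected at low levels and rose with dosage over the diploid plants. It was at 2.10, 3.04, 1.48 and 3.32 RPM in 1D, at 12.6, 3.07, 5.59 and 4.43 RPM in 2D and at 19.4, 14.9, 19.1 and 13.7 RPM in 3D. The 3D plants lay above all others, while 1D and 2D overlapped and 1 of the 2D plants stood above the other 3. These values rest on 3 to 4 counts per plant in 1D, 5 to 20 in 2D and 18 to 28 in 3D. In 3D/1D it rose by 2.24 (SE 0.44, edgeR FDR = 0.000217), which stood under every setting and without any 1 plant. In 1D/2D it fell by 1.54 (SE 0.56, edgeR FDR = 0.0367), a call lost in 6 of the 8 fits without 1 plant, in all but those without the 2D plants 1Sb24 or 1Sb26 (range -1.79 to -0.87), with DESeq2 (-1.17), with TMM factors without MIR166f and MIR166g (-1.05) and with the 6L control (-0.24). Its log2 fold change of 1.11 in 3D/2D (SE 0.40, edgeR FDR = 0.0687) and of 0.60 in h2D/h1D (SE 0.43, edgeR FDR = 0.333) missed the threshold. In h2D/h1D the interval was -0.31 to 1.50, which held both no change and the doubling of copies.

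The other 3 cis loci were at the limit of detection. Cluster_4527 had 0 to 2 counts per plant in the 1D, 2D, 3D and h1D plants and 3 to 13 in the h2D plants, where it was at 1.30 to 3.34 RPM (median 2.62). It rose by 1.82 in h2D/h1D (SE 0.53, edgeR FDR = 0.0145), which stood without any 1 plant and was lost with DESeq2 (1.90). Its mean in h1D, 0.498 RPM, was under the limit of 0.5 RPM, so it entered the test only through h2D, where it was high. Cluster_20009 was at 1.05 ± 0.614 RPM in h1D (SD, n = 4) and 2.71 ± 1.60 RPM in h2D (n = 6), a log2 fold change of 1.00 (SE 0.58, edgeR FDR = 0.215). It had 0 to 2 counts per plant in the diploid groups, too few to show a dosage step. Cluster_10611 had 0 or 1 count in every plant and was not tested.

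**Figure D1:**
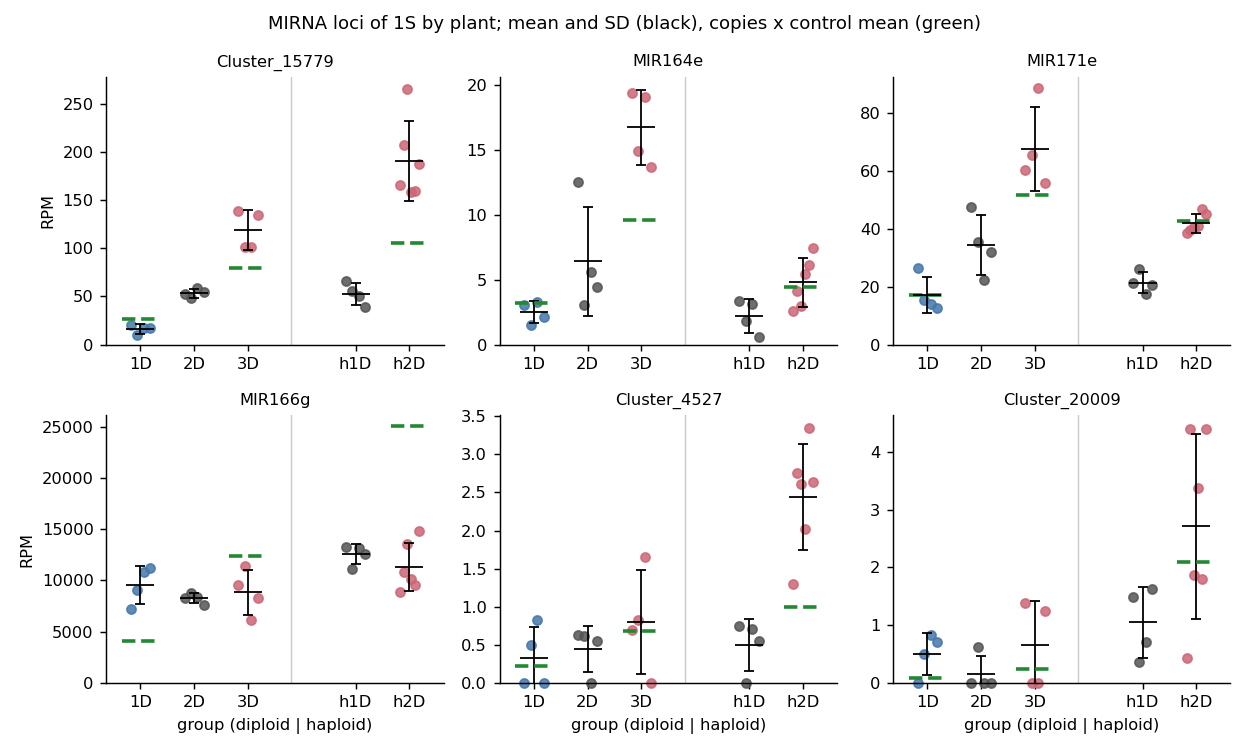
RPM of the 6 tested cis loci in each plant of the diploid (1D, 2D, 3D) and haploid (h1D, h2D) groups; black bars are means with SD, and green dashes are the mean of the control times the ratio of copies. Cluster_15779 goes from 16.2 through 53.2 to 119 RPM in the diploid groups and from 52.8 to 191.0 RPM in the haploid groups, past the dashes. The reads of MIR166g and MIR171e fit identical trans loci too.

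Counted over the cis loci, 3 of 4 tested were called lower in 1D/2D, 1 of 5 higher in 3D/2D, 3 of 6 higher and 1 lower in h2D/h1D, and 3 of 6 higher and 1 lower in 3D/1D. The 3 higher in h2D/h1D include Cluster_4527, which entered that test only through h2D, where it was high. Its call was lost with DESeq2, and its value is part of the cis median below. Calls of MIR171e and MIR166g rest on reads that fit trans loci too. Over all loci tested, 44.7% were called in 1D/2D, 9.3% in 3D/2D, 31.8% in h2D/h1D and 52.3% in 3D/1D, so calls were common outside 1S too. The median log2 fold change of the cis loci was -1.33 in 1D/2D, 0.69 in 3D/2D, 0.80 in h2D/h1D and 0.98 in 3D/1D, beside -0.29, 0.13, 0.04 and 0.37 over all loci tested. By the slope on copies, 3 of 5 cis loci were called higher (Cluster_15779, MIR164e at 1.45 and MIR171e at 0.90) and MIR166g lower (-0.45, interval -0.69 to -0.21, not called with mapped reads at -0.09), where 45.2% of all loci were called, 8 higher and 11 lower, or 16 and 5 with mapped reads as the library size.

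**Figure D2:**
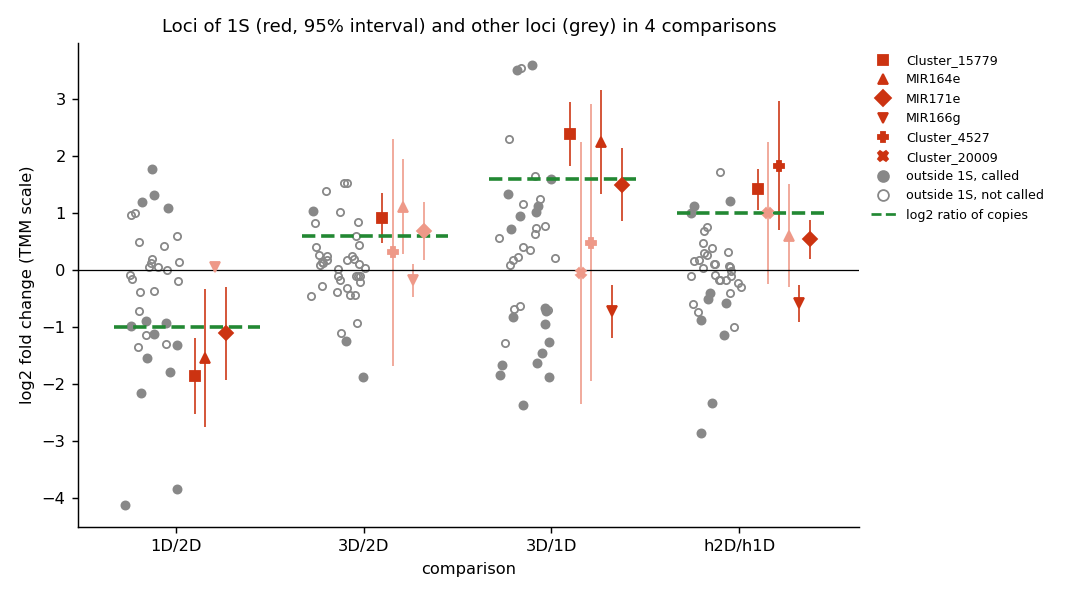
Log2 fold changes (TMM scale) of the cis loci (red, with 95% intervals, pale where not called) and of the trans loci (grey, filled where called) in 4 comparisons; green dashes mark the log2 ratio of copies of 1S. Cluster_15779 lies beyond the dash in each, while filled grey points lie on both sides of 0.

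The change of Cluster_15779 differed from that in other lines. Against the monosomies of 3S and of 5L, which have 2 copies of 1S and the same control, it was lower by 1.92 and 1.33 (SE 0.32 and 0.31) on the log2 scale in the 1S monosomies, at an edgeR FDR of 6.74e-05 and 0.00013. Against the trisomies it was higher by 0.68 than in 3S (edgeR FDR = 0.012), and its difference of 0.32 from 5L (interval -0.21 to 0.85) was not called. With mapped reads these were 1.83 and 1.11 and both were called. In the haploid background its response was larger by 1.61 than that in the 7S line (SE 0.26, edgeR FDR = 0.000107, interaction term). MIR171e was lower than in the 3S and 5L monosomies (-1.51 and -1.27) and higher than in the 5L trisomies (0.76, edgeR FDR = 0.0453). Its difference of 0.57 from the 3S trisomies was not called. MIR164e was higher than in the 3S trisomies (1.55, edgeR FDR = 0.0066), while its differences from the 3S and 5L monosomies (-1.21 and -0.99) were not called. MIR166g was lower than in the 3S trisomies (-0.74, edgeR FDR = 0.0066), and 1 cis locus was called lower against the 5L trisomies. With mapped reads no cis locus was called lower against either trisomy. The share of all loci called was 43.6% against the 3S monosomies, 48.6% against the 5L monosomies, 33.3% against the 3S trisomies, 31.1% against the 5L trisomies and 4.55% against 7S. With mapped reads, calls against the 3S trisomies went from 7 higher and 8 lower to 26 and 3, against the 5L trisomies from 6 and 8 to 13 and 3, against the 5L monosomies from 8 and 10 to 16 and 9, and against the 3S monosomies from 4 and 13 to 9 and 12. From 1 to 2 copies, 41.9% of loci responded differently in the haploid and the diploid background, 6 higher and 12 lower, or 7 and 5 with mapped reads, and of the 6 cis loci tested 1 did, MIR166g (-0.43, edgeR FDR = 0.0405), whose call was lost with mapped reads (0.07) and with DESeq2 (-0.06). The difference for Cluster_15779 was -0.38 (SE 0.32) and was not called.

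Most calls lay outside 1S, where 26 loci were called in at least 1 of the 4 comparisons, 22 of them with a miRNA name. In 1D/2D 14 of 34 trans loci were called, 4 higher and 10 lower, in 3D/2D 3 of 38, in h2D/h1D 10 of 38, 3 higher and 7 lower, and in 3D/1D 19 of 38, 8 higher and 11 lower. Without any 1 plant, 7, 2, 6 and 8 of these stood. The split by direction depended on the scale, as the log2 fold change of a locus lay 0.13, 0.26, 0.44 and 0.54 higher (medians over loci) with mapped reads as the library size than with TMM in 1D/2D, 3D/2D, h2D/h1D and 3D/1D. With mapped reads, the calls over all loci were 13 higher and 1 lower in h2D/h1D against 6 and 8 with TMM, 17 and 6 in 3D/1D against 11 and 12, and 6 and 2 in 3D/2D against 2 and 2. In 1D/2D, they were 4 and 13 on both scales, but 10 and 11 with DESeq2, and in 3D/1D 12 and 6 with DESeq2.

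**Figure D3:**
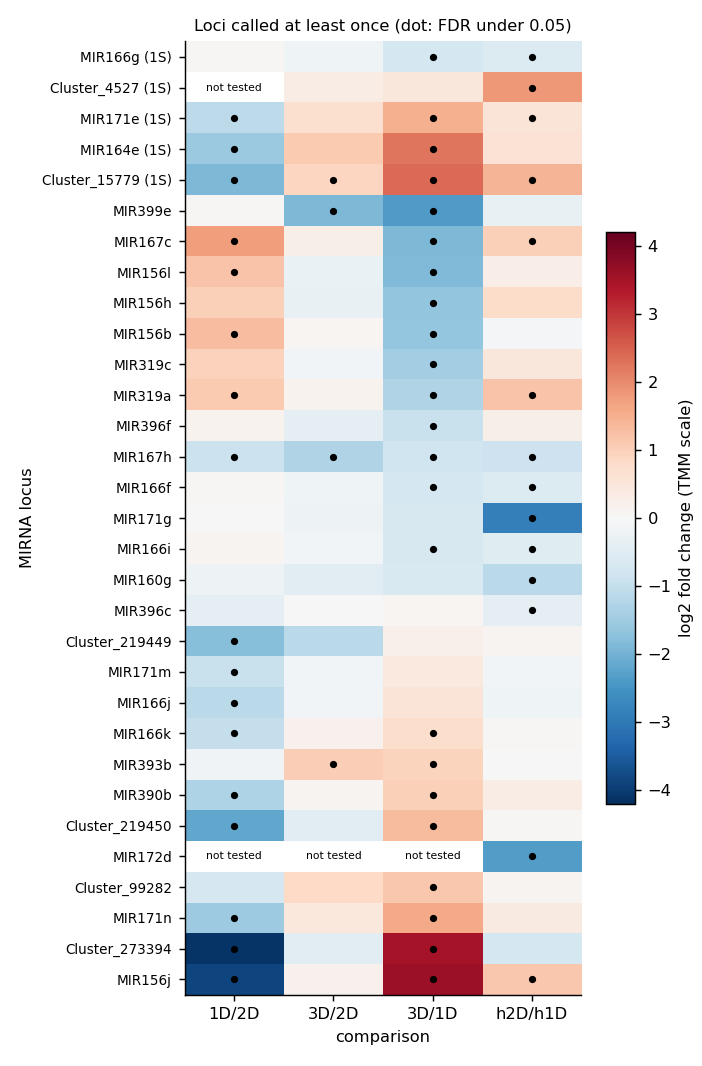
Log2 fold change (TMM scale, colour) of the 31 loci called at least once in 4 comparisons, with cis loci at the top and a dot where the FDR was under 0.05. Red and blue mark higher and lower in the first-named group; MIR156j and MIR167c change colour between 1D/2D and 3D/1D, and MIR167h is blue throughout.

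The trans calls in 1D/2D that held in every setting and without any 1 plant were those of MIR167c, MIR156j and MIR156b. Those of MIR156l and MIR319a held in every setting but were lost in some fits without 1 plant. The small RNAs listed for these and for other trans loci described below are shown so that near relatives can be compared.
MIR167c: aUCAUGCUguggcagccucacu
MIR156j: aUGACAGAagagagagagcac
MIR156b: cUGACAGAagagagugagcac
MIR156l: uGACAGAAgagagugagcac
MIR390b: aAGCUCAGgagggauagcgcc
MIR399e: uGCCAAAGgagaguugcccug
MIR319a: uUGGACUGaagggugcucccu
MIR171g: uGAGCCGAgccaauaucacuuc
They lie at chr5:4442863-4443043 (MIR167c), chr7:133874247-133874509 (MIR156j), chr3:7747865-7748022 (MIR156b), chr5:186624556-186624649 (MIR156l), chr5:2743152-2743352 (MIR390b), chr2:16783346-16783553 (MIR399e), chr3:220844026-220844198 (MIR319a) and chr7:43696495-43696690 (MIR171g). MIR156h has the sequence of MIR156l, MIR319c that of MIR319a, MIR166k that of MIR166j, and MIR171m that of Cluster_42505. Reads of such loci fit each of them, so their calls are not independent. The sequence of MIR156b is that of MIR156l and MIR156h with a C before it. Reads of MIR156l and MIR156h thus fit MIR156b as well, and its calls are not independent of theirs. The RNAs listed for MIR167c and MIR167h are not the conserved miR167 strand, which acts on auxin response factors.

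MIR167c was at 177.6, 225.4, 181.4 and 189.9 RPM in 1D, above all other groups, beside 65.4, 43.6, 45.6 and 54.3 RPM in 2D and 83.2, 53.1, 83.7 and 78.2 RPM in 3D. It rose by 1.77 in 1D/2D (SE 0.24, edgeR FDR = 0.000131), and its log2 fold change in 3D/2D was 0.26 (not called). In the haploid plants it was at 19.4 to 21.4 RPM in h1D and at 37.95 to 64.8 RPM in h2D, a rise of 1.00 (SE 0.18, edgeR FDR = 0.000677). More copies thus went with a lower level in 3D/1D (-1.87) and with a higher one in h2D/h1D. MIR167h was lower in all 4 comparisons, by 0.89, 1.25, 0.88 and 0.82 on the log2 scale in 1D/2D, 3D/2D, h2D/h1D and 3D/1D. It was at 64.7 to 84.6 RPM in 1D and 38.9 to 83.9 RPM in 3D, below the 92.7 to 153.4 RPM of 2D. Of these 4 calls, that in 3D/2D held in every setting (edgeR FDR = 0.000513), and that in 3D/1D in none of the 6 others (-0.59 to -0.21). That in h2D/h1D was lost with mapped reads (-0.45), and that in 1D/2D with TMM factors without MIR166f and MIR166g (-0.39). The study called MIR167c and MIR167h different between plants with 1 B chromosome and plants with none, at an FDR under 0.05. It set both aside, since effects of the A segment and of the B chromosome were difficult to tell apart.

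Plants with 1 B chromosome and plants with none (4 libraries each, with the 2 libraries EB37 and EB40 counted as 1 sample because a chi-square test of their counts found no difference, p = 0.176) give values for such an effect. The labels give EB37 and EB40 as separate plants, and the lack of a difference in that test does not make them 1 sample. A fit with the 2 libraries kept apart was not run. MIR167c was higher by 1.20 (SE 0.40, edgeR FDR = 0.252) and MIR167h lower by 0.65 (SE 0.29, edgeR FDR = 0.343) with a B chromosome. Neither passed the threshold here, whereas the study called both. Cluster_15779 was lower by 0.83 (SE 0.32, edgeR FDR = 0.317) with 1 B, opposite in sign to its change in 3D/2D and h2D/h1D and in the direction of its change in 1D/2D. With edgeR 0 of 43 loci (0.0%) were called, 4 had an unadjusted p under 0.05 (Cluster_15779, MIR167c, MIR167h and MIR396c), and 1 was called with DESeq2, 1 with mapped reads and 1 with TMM factors without MIR166f and MIR166g. Of the 26 trans loci called in the 1S plants, 25 were tested here, and 3 of these had an unadjusted p under 0.05. The part of the B chromosome in the results above was not tested in the 1S plants.

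The miR156 loci, which target SPL factors of the change from juvenile to adult growth, moved in opposite directions in the monosomies. MIR156b was at 34.97, 35.7, 24.2 and 20.7 RPM in 1D, above the 7.99 to 13.3 RPM of 2D, a rise of 1.31 (SE 0.36, edgeR FDR = 0.00902). MIR156l was at 36.5 to 75.9 RPM in 1D and 12.3 to 31.03 RPM in 2D, a rise of 1.20 (SE 0.39, edgeR FDR = 0.0218) that was lost without the 2D plant 1Sb16 or 1Sb24 or the 1D plant 1Sb1 (0.99 to 1.76 over the 8 fits). MIR156j went the other way, with 0 to 3 counts per plant (at most 2.28 RPM) in 1D beside 6.29 to 19.2 RPM in 2D and 13.3 to 19.9 RPM in 3D. It fell by 3.84 in 1D/2D (SE 0.67, edgeR FDR = 0.000382) and rose by 3.60 in 3D/1D (SE 0.55, edgeR FDR = 9.64e-06) and by 1.12 in h2D/h1D (SE 0.32, edgeR FDR = 0.0145). Its rise in h2D/h1D, from 9.80 to 15.4 RPM up to 16.7 to 61.8 RPM, was lost without the h1D plant Hh46 (0.98 to 1.25 over the 10 fits). Of the 4 miR156 loci, 1 was called higher and 3 lower in 3D/1D, MIR156l by 1.84 and MIR156b by 1.64, both in every setting, and MIR156h by 1.66, which was not called with DESeq2 (-1.42) or a limit of 1 on mean RPM (-1.22) and was lost without 1Sb14 of 1D or the 3D plant 1Sb2, 1Sb4 or 1Sb7 (-1.81 to -0.88). Reads of MIR156l and MIR156h fit MIR156b too, so the counts do not show which of these 3 loci changed.

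MIR390b, which guides the first cut of the TAS3 transcripts that give rise to small RNAs against auxin response factors, was low in the monosomies. It was at 105.6, 116.9, 140.4 and 99.5 RPM in 1D, at 212.6 to 298.5 RPM in 2D and at 235.0 to 435.9 RPM in 3D, and 1D did not overlap the others. It fell by 1.31 in 1D/2D (SE 0.21, edgeR FDR = 0.000379) and rose by 1.01 in 3D/1D (SE 0.27, edgeR FDR = 0.00378). With the 6L control its value in 1D/2D turned to 0.96 and was called higher (edgeR FDR = 9.22e-05), since those 2D plants were at 70.8 RPM on average. In h2D/h1D its log2 fold change was 0.31 (SE 0.15, edgeR FDR = 0.143).

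MIR399e, of the family that targets the PHO2 transcript in phosphate supply, was low in the trisomies. It was at 9.02, 9.14, 9.11 and 7.45 RPM in 3D, and at 9.59, 23.3, 36.2 and 36.5 RPM in 2D, with 1 of the 2D plants close to the 3D plants. It fell by 1.89 in 3D/2D (SE 0.37, edgeR FDR = 0.000907) and by 2.38 in 3D/1D (SE 0.35, edgeR FDR = 7.78e-06), and with the 6L control its value in 3D/2D was 0.04 and not called. MIR393b, of the family that targets auxin receptors, rose by 1.03 in 3D/2D (SE 0.31, edgeR FDR = 0.0343). That call was lost without the 2D plant 1Sb25 or 1Sb26 or the 3D plant 1Sb4 or 1Sb6 (0.54 to 1.17 over the 8 fits), with DESeq2 (1.05), with a limit of 1 on mean RPM (1.05) and in 1 fit over the 5 groups (1.02), and plant 1Sb6 was at 101.9 RPM beside 34.8 to 45.8 RPM in the other 3D plants.

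In the haploid plants the trans locus that changed most was MIR171g. It was at 78.0, 52.9, 45.2 and 43 RPM in h1D and at 5.91 to 18.2 RPM in h2D, close to the 5.31 to 9.95 RPM of the 12 diploid plants. It fell by 2.86 (SE 0.28, edgeR FDR = 1.05e-06), or 7.24-fold, in every setting and without any 1 plant. The locus table places MIR171g in 7S, so that its own copies double in the 7S disomies. Its log2 difference between the responses in the 1S and 7S lines was -1.56 (SE 0.43, edgeR FDR = 0.0291), a call lost with mapped reads (-1.28), TMM factors without MIR166f and MIR166g (-1.43) and DESeq2 (-1.39). MIR319a, of the family that targets TCP factors of leaf growth, was at 3.99 to 6.65 RPM in h1D and 14.04 to 21.9 RPM in h2D, a rise of 1.20 (SE 0.26, edgeR FDR = 0.00217) in every setting. In the diploid plants it was higher in 1D than in 2D (1.09, edgeR FDR = 0.0367, lost without the 1D plant 1Sb1 or the 2D plant 1Sb24 or 1Sb25, range 0.96 to 1.60) and lower in 3D than in 1D (-1.27, edgeR FDR = 0.00259, lost without the 1D plant 1Sb14 or the 3D plant 1Sb4, range -1.44 to -0.58, and with a limit of 1 on mean RPM, -0.87). The others called were MIR166f and MIR166i (above), MIR396c (-0.41) and MIR160g (-1.14), whose values with mapped reads were 0.01 and -0.71 and not called and whose calls were lost without the h1D plant Hh46 (-0.51 to -0.30 and -1.45 to -1.03), MIR396c also with no limit on mean RPM (-0.38) or a limit of 1 (-0.32), and MIR172d (-2.34), which had at most 1.81 RPM in any haploid plant and was not called with mapped reads (-1.93) or DESeq2 (-2.56). With a mean under 0.5 RPM in h2D, MIR172d entered the test only through h1D, where it was higher.

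**Figure D4:**
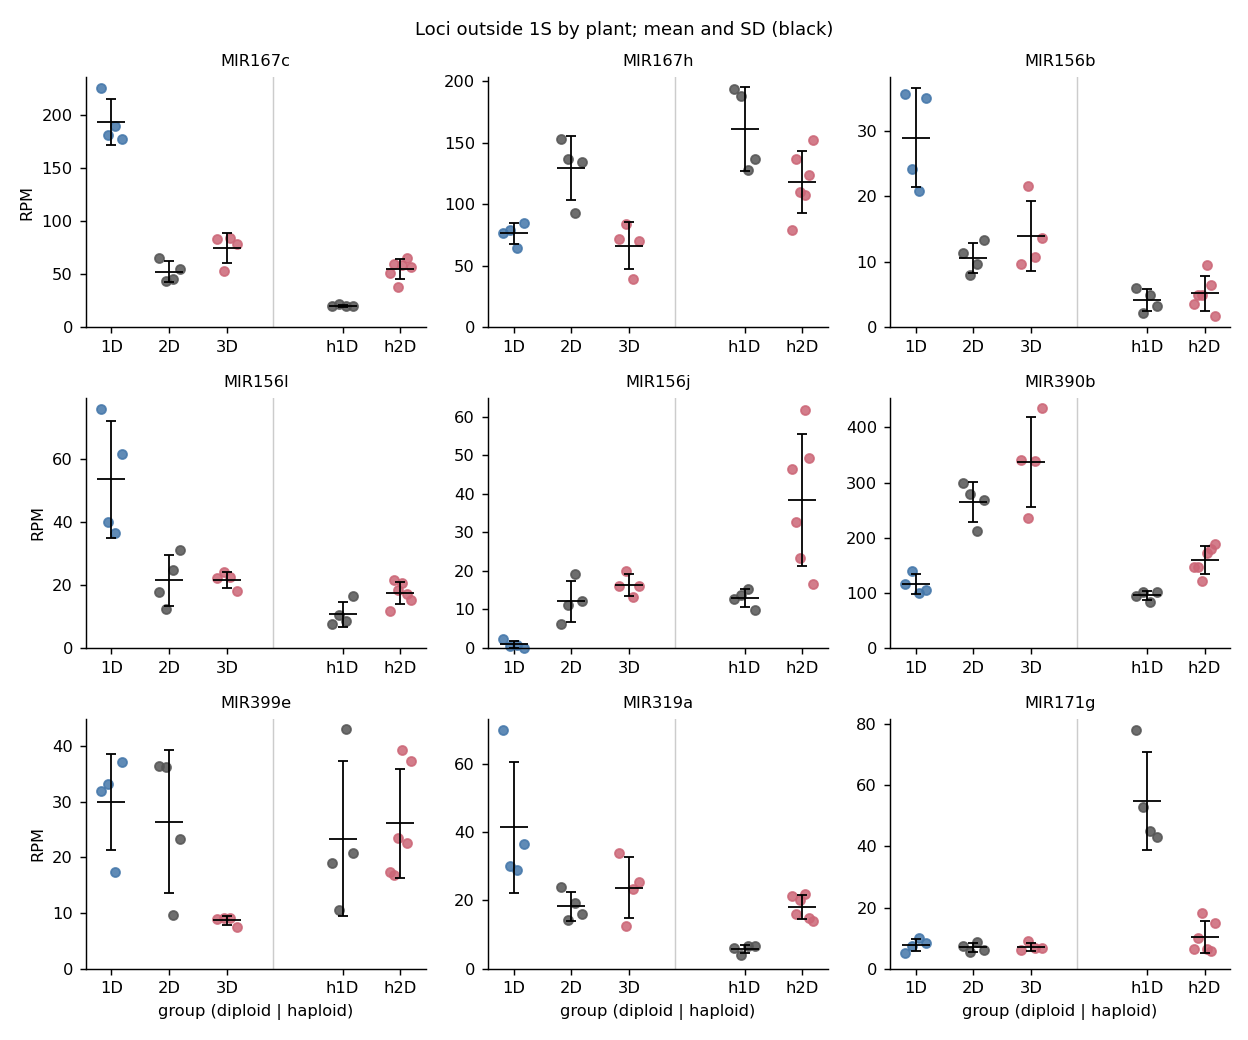
RPM of 9 trans loci in each plant of the 5 groups, with means and SD in black. MIR167c and MIR156b are highest in 1D, MIR156j is close to 0 in 1D, MIR399e is lowest in 3D, and MIR171g is high in h1D alone, at 43 to 78.0 RPM.

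By family, the 5 miR166 loci had 2 called lower in 1D/2D (MIR166j and MIR166k) and 3 lower in h2D/h1D, none of the latter with mapped reads, and neither of the 2 miR394 loci was called in any of the 4 comparisons. MIR166j and MIR166k share a sequence, and the 3 loci lower in h2D/h1D share another, so the reads do not show which locus changed. The other trans loci with the lowest FDR in 1D/2D were MIR166k (-0.99, SE 0.17, edgeR FDR = 0.000382), MIR171n (-1.54, SE 0.36, edgeR FDR = 0.00407), MIR166j (-1.13, SE 0.29, edgeR FDR = 0.00543) and the neighbouring loci Cluster_219450 and Cluster_219449 on chromosome 6 (-2.17 and -1.79, SE 0.51 and 0.44, edgeR FDR = 0.00407 and 0.00538). The calls of MIR166k were lost without the 1D plant 1Sb14 or 1Sb18 (-1.0 to -0.53), of MIR171n without 1Sb17 or 1Sb18 (-1.60 to -0.90) and with the 6L control (-0.02), and of MIR166j without 1Sb14, 1Sb17 or 1Sb18 (-1.16 to -0.66). With the 6L control, MIR166k (0.22), MIR166j (0.23) and Cluster_219450 (-0.93) were not called either, and Cluster_219449 was called higher (1.20). MIR171m was lower too (-0.93, lost without 1Sb14, 1Sb17 or 1Sb18, -1.03 to -0.48, with the 6L control, -0.02, and with TMM factors without MIR166f and MIR166g, -0.43), as was MIR167h (lost without the same 3 plants, -0.98 to -0.41). Cluster_273394 had no count in any 1D plant and 8 and 6 counts in the 2D and 3D plants, so it entered the tests only through 2D and 3D. Its fitted log2 fold changes were -4.12 in 1D/2D and 3.51 in 3D/1D, sizes that a group without counts leaves poorly set. Set against a floor of 3 counts over the 1D group, its levels in 2D and 3D were at least 2.54-fold and 2.19-fold higher. These bounds leave out the counting error of the 8 and 6 counts, and DESeq2 called neither difference. In 3D/1D, MIR166k rose by 0.72 (SE 0.23, edgeR FDR = 0.0104) in every setting, and MIR396f fell by 0.94 (SE 0.20, edgeR FDR = 0.000398), which was lost without 1Sb14 of 1D or any 1 of the 3D plants (-0.99 to -0.47), with mapped reads (-0.37) and with a limit of 1 on mean RPM (-0.46). MIR319c, MIR167h, MIR166f, MIR166i, Cluster_219450, MIR393b and Cluster_99282 were called there as well, and none of these 7 stood in all fits without 1 plant. MIR167h, MIR166f and MIR166i were lost without 1Sb14 of 1D or any 1 of the 3D plants (-0.95 to -0.25, -0.73 to -0.17 and -0.68 to -0.17), and MIR319c without the same plants other than 1Sb7 (-1.60 to -0.71). Cluster_219450 and Cluster_99282 were lost without the 1D plant 1Sb17 or 1Sb18 (1.10 to 2.11 and 0.97 to 1.80), and MIR393b without 1Sb18 or 1Sb1 of 1D or 1Sb6 of 3D (0.64 to 1.49). Among the other settings, MIR166i was lost in all 6 (-0.46 to -0.09), MIR166f in all 5 (-0.50 to -0.12), MIR319c with mapped reads (-0.91), DESeq2 (-1.23) and a limit of 1 on mean RPM (-1.0), and Cluster_219450 in 1 fit over the 5 groups (1.51).

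The median ratio of mean RPM over the trans loci was 0.955 in 1D/2D (SD over plants 0.157), 1.28 in 3D/2D (0.123), 1.28 in h2D/h1D (0.152) and 1.69 in 3D/1D (0.379), after ratios above 6 or below its inverse were left out. These are values on the scale of mapped reads. On the TMM scale, the last 3 were 1.07, 0.971 and 1.14.

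Control plants without a varied arm also differed. Between the 2D plants used here and those of the 6L line, from the same sequencing experiment, 61.4% of the loci were called, 17 higher and 10 lower, or 7 and 11 with DESeq2, among them MIR171e (1.19), MIR166g (-0.53) and Cluster_20009 (-2.57) of the cis loci, while Cluster_15779 differed by -0.25 (edgeR FDR = 0.449). Between the h1D plants used here and those of the 3L and 7S lines 10.9% were called, 3 higher and 2 lower, with no cis locus among them. Each difference from the 2D plants above thus stands beside a difference between controls in which 1S did not vary, and with the 6L control 1 of the 3 cis calls in 1D/2D and 7 of the 14 trans calls held.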

How the data were processed

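Small RNA libraries of 22 plants, and of the groups they were compared with, were read from a table of all 322 libraries. Per the labels and the study's methods, the authors trimmed reads with cutadapt 1.16 and removed low-quality reads and reads of structural RNAs (Bowtie2), then aligned the rest to W22v2 and the organelle genomes and called MIRNA loci with ShortStack. The deposited values are whole read counts per locus, none normalized, and RPM, the authors' counts scaled by the mapped reads of the library. The largest relative spread of the ratio of counts to RPM within a library was 1.85e-09, from which the mapped reads were taken. How reads that fit several loci were placed is not given in the sources used here.

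Counts were tested with edgeR 4.0.16 (R 4.3.3, quasi-likelihood, TMM) over all loci with a mean of at least 0.5 RPM in the plants compared and called at a Benjamini-Hochberg FDR under 0.05 within a comparison. The SE is the size of the log2 fold change over the root of the F statistic. The percent of mapped reads counted at the loci and the summed miR166 sequence were compared with exact two-sided permutation tests, adjusted over 4 comparisons. Python 3.11.15, numpy 2.4.6, pandas 2.3.3, scipy 1.17.1 and matplotlib 3.10.9 were used. The fits were tested on simulated data.

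Alternatives were mapped reads as the library size, TMM factors without MIR166f and MIR166g, DESeq2 1.42.0, no limit or a limit of 1 on mean RPM, 1 fit over the 5 groups, the 6L control, and leaving out each plant. The comparison of 1 with no B chromosome was added after seeing the data. Named are the 7 cis loci, trans loci of identical sequence, MIR167c and MIR167h, and trans loci called in 1D/2D, 3D/2D, h2D/h1D or 3D/1D, those of lowest FDR with their statistics. The members and the lists were chosen with earlier results of these data known. Where the labels do not say how plants were raised, p-values measure the spread between these plants. The depth of 31667 to 155560 counts sets the precision, and the floor of 3 counts covers counting error only.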

Additional observations from a re-analysis of the deposited data

Results flagged for a closer look

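By Dixon's criterion 1 plant lay far from the others in 7 of the groups of plants tested locus by locus, 4.22% of them, which is no more than the about 5 percent that chance gives. In 3D, plant 1Sb6 was at 101.9 RPM for MIR393b (others 34.8 to 45.8 RPM) and at 58.0 RPM for MIR171m (others 69.4 to 71.4 RPM), and plant 1Sb7 was at 7.45 RPM for MIR399e (others 9.02 to 9.14 RPM). In 1D, plant 1Sb14 was at 15.9 RPM for MIR319c (others 6.42 to 7.69 RPM). In h2D, plant 1Sbh169 was at 5.74 RPM for MIR156h (others 2.48 to 3.08 RPM) and plant 1Sbh9 at 7.90 RPM for MIR160g (others 2.60 to 3.58 RPM). Plant 1Sbh9, which came from another sequencing pool than the other haploid plants, also had no count for Cluster_219450 (floor of 3 counts 1.32 RPM, others 15.3 to 23.4 RPM) or for its neighbour Cluster_219449 (others 11.7 to 19.3 RPM). These loci had no count in 18 and 21 of the 322 libraries of the series.

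The change from 1 to 2 copies of 1S differed between the haploid and the diploid background at 18 loci (edgeR interaction term). The log2 differences, haploid minus diploid, were above 0 for MIR167c (2.91), MIR319a (2.42), MIR156h (1.87), MIR156l (1.60), MIR319c (1.57) and MIR156b (1.397). They were below 0 for Cluster_273394 (-5.44, with no count in 1D), MIR171g (-2.76), MIR156j (-2.59), MIR167h (-1.66), MIR166j (-1.17), MIR171n (-1.04), MIR171m (-0.91), MIR390b (-0.84), MIR166k (-0.76), MIR396c (-0.69), MIR166g (-0.43) and MIR166f (-0.42). The haploid and diploid plants came from different sequencing pools, so background and pool cannot be told apart. Of the 18 calls, 11 held with mapped reads, with DESeq2 and with TMM factors without MIR166f and MIR166g, and those of MIR166f, MIR166g, MIR166k, MIR171m, MIR171n, MIR390b and MIR396c did not. The change from 1 to 2 copies in haploid plants differed between the 1S and 7S lines for Cluster_15779 (1.61, called in all 4 settings) and MIR171g (-1.56, called in none of the 3 others). MIR171g lies in 7S, so its own copies double in the 7S line.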

How the results depend on the processing

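Over all other settings and left-out plants, the values of cis loci kept direction and side of the threshold in 261 cases, gained a call in 13, lost one in 29 and turned in 1, and those of trans loci in 1308, 73, 113 and 10. In 3D/2D, 4 loci were called, against 8 with mapped reads, 7 with no limit on mean RPM and 18 with the 6L control. With mapped reads 29 loci were called against the 3S trisomies in place of 15. Against 7S, 1 was called with mapped reads, with TMM factors without MIR166f and MIR166g or with DESeq2, in place of 2, and between the haploid controls 3, 2 and 3 in place of 5. With the 6L control the log2 fold change turned in 1D/2D for MIR171e (0.19), MIR393b (1.00), MIR166k (0.22), MIR390b (0.96), Cluster_219449 (1.20), MIR166j (0.23) and MIR396c (0.56), and in 3D/2D for MIR396f (0.71), Cluster_219449 (1.33) and MIR399e (0.035). With mapped reads it turned for MIR396c in h2D/h1D (0.015). The cause was not tested in any of these cases. The median trans ratio on the TMM scale was 1.07 in 3D/2D, 0.971 in h2D/h1D and 1.14 in 3D/1D, and 1.404 in 3D/2D over loci with a sequence of their own. Without 1 plant at a time, 10 (without 1Sb18 of 1D) to 16 loci were called in 1D/2D, 3 to 6 in 3D/2D, 9 (without Hh46 of h1D) to 16 in h2D/h1D and 17 to 21 in 3D/1D, and the median trans ratio in 1D/2D was 0.780 (without 1Sb14) to 1.05. No paired analysis was possible because the labels of the groups share no replicate numbers. Cis loci with few counts limit what can be read at this depth: Cluster_10611 was never tested, and Cluster_4527 and Cluster_20009 could not show a step in the diploid plants.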
